A study of Saccharomyces cerevisiae with 27 samples.

Results

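The response of budding yeast to 1 double-strand break was compared between wild type and scc2-4, a temperature-sensitive allele of SCC2. All 27 arrays of the study entered the comparison, so its members are the 27 samples of 27 in all, and the readout is the difference between the break effect in scc2-4 and the break effect in wild type for each of 5434 genes. Every strain was haploid and of the W303 background, grew on 2% raffinose, was held in G2/M, was heated and received galactose 30 min later, and was harvested after a further 90 min. Wild type contributed 7 arrays without and 6 with the break, and scc2-4 contributed 7 of each kind. Galactose was given to every group and switches on the HO endonuclease, which cuts only where its recognition site is present. Groups with and without a break are therefore read as different strains, and an effect of the break cannot be told apart from another difference between these strains. The sample descriptions place the break on chromosome VI and a characteristic names chr.iv, a conflict that the labels do not settle.

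Scc2 and its partner Scc4 load cohesin, the ring of Smc1, Smc3, Mcd1 and Irr1 that holds sister chromatids together. After a double-strand break the kinases Mec1 and Tel1 activate Rad53 and Dun1, which lift the repressor Rfx1 from promoters of genes such as those of ribonucleotide reductase, the enzyme that makes deoxynucleotides. Cohesin is loaded again around the break and, in G2/M, also across the genome, which depends on Scc2. The question put to the data was which parts of the transcriptional response to the break differ when Scc2 is inactive.

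Over both experiments fewer genes passed the test of the break effect in scc2-4 than in wild type, and for part of them the difference between the genotypes passed as well. In wild type 736 genes passed the threshold (13.5% of 5434), of which 430 rose (7.91%) and 306 fell (5.63%). In scc2-4 368 genes passed (6.77%), of which 192 rose (3.53%) and 176 fell (3.24%). Experiment 1 alone did not share this order, with 22 effects past the threshold in wild type and 36 in scc2-4, and the counts were close with array weights (1398 and 1358). The difference between both effects passed for 139 genes (2.56%), with 70 higher (1.29%) and 69 lower (1.27%) in scc2-4. Each effect is a log2 change within the same genotype and experiment, and a gene is called where the adjusted p of limma is under 0.05. Among the 736 genes called in wild type, 705 had a smaller effect in scc2-4 and 158 had the opposite sign there, a description that favours wild type because these genes were chosen for their wild-type effect. The median absolute effect over all genes was 0.062 in wild type and 0.052 in scc2-4. The median standard error of the difference was 0.065, so most single differences were not detectable with this number of arrays.

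The 139 genes fell into 6 classes. The effect was lost in 68 genes, which changed in wild type and did not pass in scc2-4. It was reduced in 11 genes, which passed in both genotypes with 1 sign and a smaller size in scc2-4. It was reversed in 7 genes, larger in 2 and gained in 39, which passed in scc2-4 and not in wild type. A further 12 genes differed although neither effect passed. Against these stood 95 kept genes, called in both genotypes with 1 sign and with no difference past the threshold. For 553 genes called in wild type alone and 214 called in scc2-4 alone, the difference did not pass and no class can be given. The plot of both break effects shows these classes for all 5434 genes. SAT4 lay just inside the threshold of the difference (adjusted p = 0.0492) and CTF3 just outside (adjusted p = 0.0502).

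**Figure D1:**
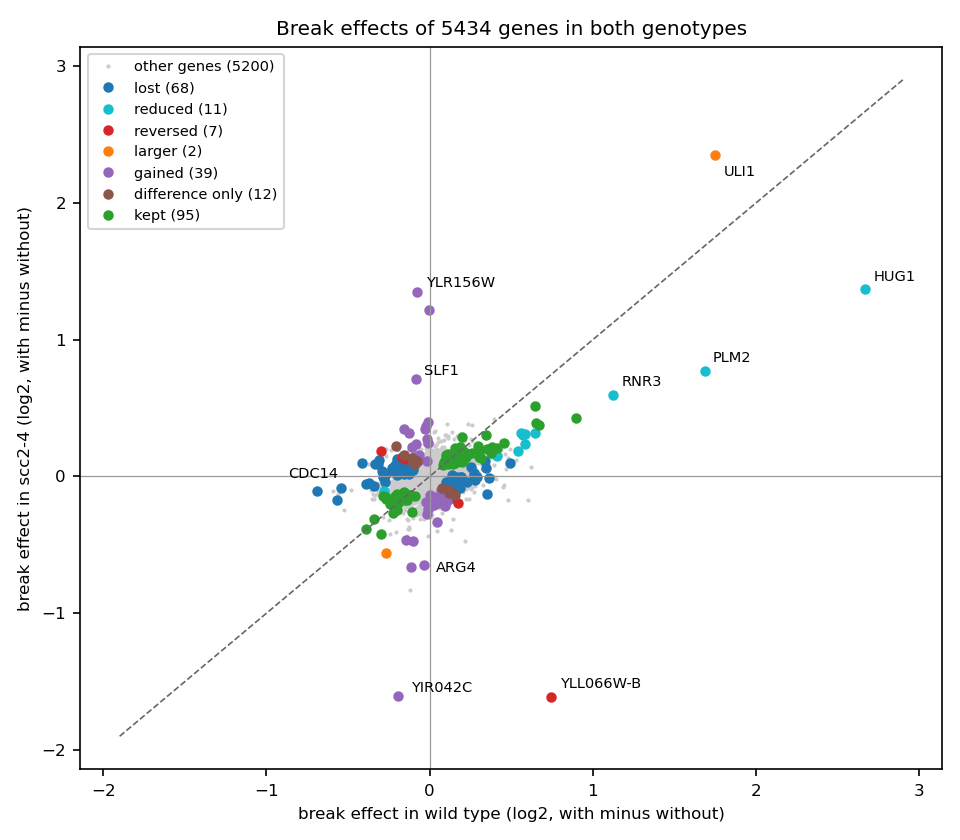
Each point is 1 of 5434 genes, with the log2 break effect in wild type on the x axis and in scc2-4 on the y axis, coloured by class, and the dashed line marks equal effects. HUG1, PLM2 and RNR3 lie below the line at 2.67, 1.69 and 1.12 in wild type, ULI1 lies above it, and YLL066W-B at 0.75 in wild type and −1.61 in scc2-4.

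The arrays fell into 3 sets by their distribution of values, with column medians of 10.19 to 10.22 in experiment 1 (12 arrays), 9.76 to 9.79 for wild type of experiment 2 (7 arrays) and 10.01 to 10.04 for scc2-4 of experiment 2 (8 arrays). Both states of the break lay in each set, and genotype and set cannot be told apart in experiment 2, so each effect was taken within genotype and experiment. This removes an offset between the sets and not a difference in the scale of their values. With quantile normalization over all arrays 146 differences were called, 127 of the 139 among them. All 139 called differences had the same sign in experiment 1 and in experiment 2, where both experiments contributed to the call. The change of the difference from experiment 1 to experiment 2 passed for 0 genes by limma, with 283 genes at an unadjusted p under 0.05. In the same fit the break effect itself changed between the experiments for 5 genes in wild type and 4 in scc2-4. A count of 0 does not show that the experiments gave equal differences. Some replicates lay close together, such as the 1_1 and 1_2 arrays of wild type without a break with a median absolute difference of 0.036, and the p-values do not allow for this. Arrays with and without a break also deviated together within a genotype and experiment, such as 1_2 without and 1_1 with a break in wild type (r = 0.80 across genes, which are not independent), and the effects given here do not allow for this either. With each genotype and experiment split in 2 by these shared deviations, as a block, all 139 differences kept their sign and their call. That split was taken from the same values, so its p-values are too small and the kept calls are no support. With arrays that close averaged, 21 arrays remained and 54 differences were called, and with experiment 1 alone 11 were called.

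The most strongly induced damage genes responded in both genotypes, and their induction was weaker in scc2-4. HUG1, which encodes a small inhibitor of ribonucleotide reductase, changed from the mean of its own no-break arrays by 2.19, 2.74 and 2.95 (lowest, median and highest of 6 arrays) in wild type and by 1.24, 1.35 and 1.58 in scc2-4 (7 arrays), while the no-break arrays lay between −0.25 and 0.25. Every array with a break lay above every array without one, and no scc2-4 array reached the lowest wild-type array. The break effect of HUG1 was 2.67 ± 0.09 (SE) on the log2 scale in wild type, or 6.35-fold, and 1.37 ± 0.09 in scc2-4, or 2.59-fold. The difference was −1.30 ± 0.13 (adjusted p = 2.37e-07). It came to −1.14 in experiment 1 and to −1.44 in experiment 2, and it passed under every alternative tried except the filter on the dimmest 25% of genes, which left HUG1 out.

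PLM2, a forkhead-associated protein induced by damage, changed by 1.10, 1.61 and 2.25 in wild type and by 0.64, 0.77 and 0.96 in scc2-4 (lowest, median and highest). The 2 ranges did not overlap. Its difference was −0.91 ± 0.19 (adjusted p = 0.00796), and it was not past the threshold in experiment 1 alone or with close arrays averaged. RNR3, the alternative large subunit of ribonucleotide reductase, changed by 0.61, 1.12 and 1.48 in wild type and by 0.53, 0.59 and 0.71 in scc2-4. Of the wild-type arrays with a break, 1_3 lay within the range of scc2-4 at 0.61 and the others lay above it, those of experiment 2 by more than those of experiment 1. The RNR3 difference was −0.53 ± 0.11 (adjusted p = 0.0116), made up of −0.20 in experiment 1 and −0.82 in experiment 2, and it did not pass in experiment 1 alone.

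**Figure D2:**
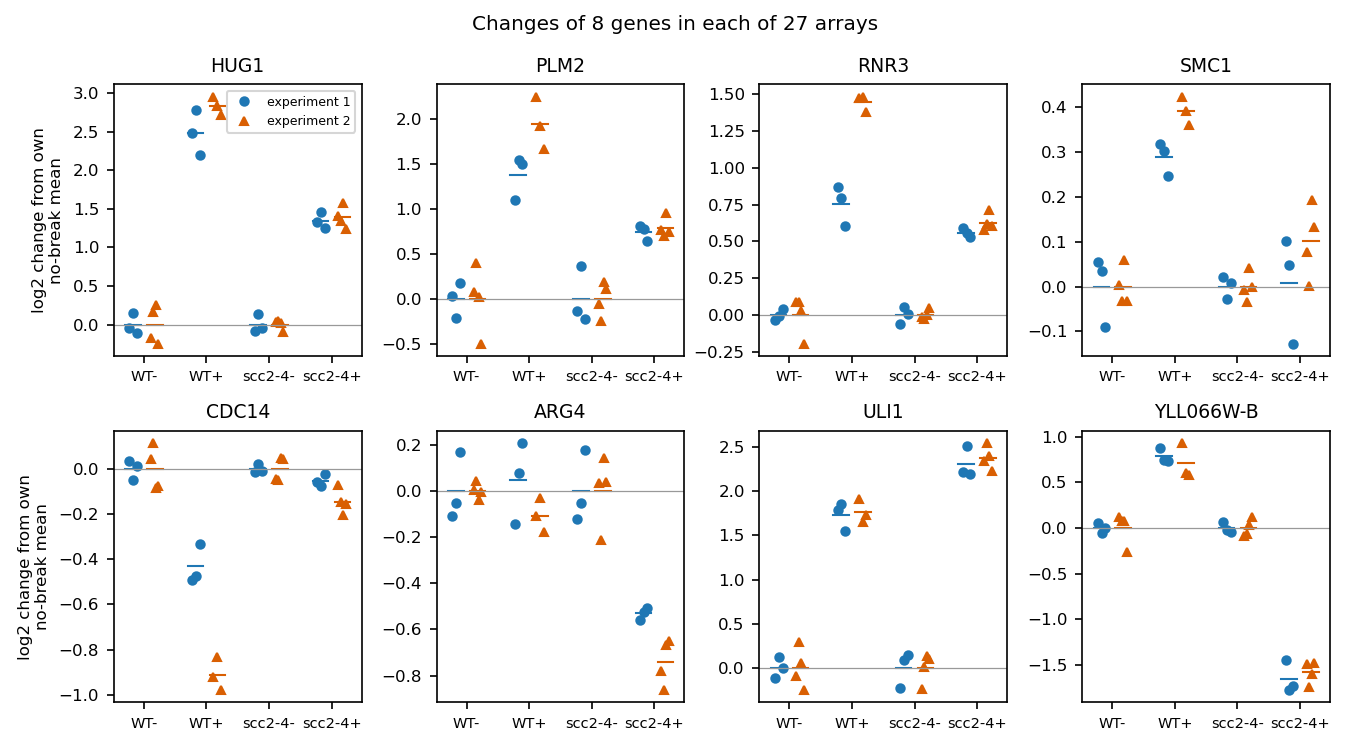
Each panel plots 1 gene, with the 4 groups on the x axis and the log2 change of each array from the mean of the no-break arrays of its genotype and experiment on the y axis. Circles are experiment 1, triangles experiment 2, and short lines are means. HUG1 and PLM2 rise less in scc2-4 with a break (scc2-4+) than in wild type with a break (WT+), SMC1 and CDC14 passed in wild type and not in scc2-4, ARG4 fell in scc2-4 and did not pass in wild type, and YLL066W-B changed in opposite directions.

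The other reduced genes had smaller effects. RNR2, the small subunit of ribonucleotide reductase, had an effect of 0.58 ± 0.05 in wild type and 0.31 ± 0.05 in scc2-4 (difference −0.27; adjusted p = 0.0368). DUN1, the checkpoint kinase that acts below Rad53, had 0.56 ± 0.04 and 0.32 ± 0.04 (difference −0.25; adjusted p = 0.0187). DIN7, a damage-induced nuclease of mitochondria, had 0.58 and 0.24 (difference −0.34; adjusted p = 0.0176). FRD1, a fumarate reductase, GAS3, a protein related to cell wall glucanosyltransferases, and ESC8, a protein linked to silencing, rose by 0.64, 0.54 and 0.58 in wild type and by 0.31, 0.19 and 0.31 in scc2-4. PDS5, which maintains cohesin on chromosomes, rose by 0.41 and 0.15, and the remaining member, AIM44, was the only reduced gene that fell (−0.28 in wild type and −0.11 in scc2-4). The RNR2 call was lost without any 1 of 12 of the 27 arrays, and FRD1 and ESC8 lost theirs without 2_2 or 2_3 of wild type with a break.

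Of 21 measured genes in the list of DNA damage response targets, 13 rose in wild type and 9 in scc2-4, and 0 fell in either. The difference was called lower in scc2-4 for 7 and higher for 0. Over all genes 7.91% rose in wild type, 3.53% rose in scc2-4 and 1.27% were lower in the difference. The list medians were 0.25 in wild type, 0.17 in scc2-4 and −0.19 for the difference, against −0.01, 0.00 and 0.00 over all genes. The 7 were HUG1, PLM2, RNR3, DIN7, RNR2, DUN1 and RAD52. This number was 11 in experiment 2 alone, 1 in experiment 1 alone, 3 with close arrays averaged and 2 with experiment as an additive term. The list was drawn up with earlier results of these data known.

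The 3 kept members of the same list, RNR1, RNR4 and TOS4, rose in both genotypes with no difference past the threshold. RNR1, the main large subunit, rose by 0.65 ± 0.07 in wild type and by 0.39 ± 0.07 in scc2-4 (difference −0.26, 95% interval −0.46 to −0.07; adjusted p = 0.143). RNR4, the other small subunit, rose by 0.38 and 0.22 (difference −0.16, interval −0.27 to −0.06; adjusted p = 0.0801). TOS4, a relative of PLM2, rose by 0.20 and 0.19 (difference −0.02, interval −0.17 to 0.14). RAD53, the kinase above Dun1 and a member of the checkpoint list, rose by 0.35 and 0.20 (difference −0.15; adjusted p = 0.391). The repressor gene RFX1, of the damage list, passed in neither genotype, with effects of 0.02 and 0.18.

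Among 9 genes of ribonucleotide reductase and its regulators, 5 rose in wild type and 6 in scc2-4 (over all genes 7.91% and 3.53%). The additional gene in scc2-4 was DIF1, which moves the small subunits into the nucleus. DIF1 changed by −0.17, −0.04 and 0.15 in wild type (lowest, median and highest) and by 0.20, 0.35 and 0.50 in scc2-4, with no overlap. Its effect was −0.03 ± 0.06 in wild type and 0.34 ± 0.05 in scc2-4 (difference 0.38; adjusted p = 0.00859). Of 18 checkpoint genes, 4 rose in wild type, 2 rose and 1 fell in scc2-4, and 2 differed. The same shares over all genes were 7.91%, 3.53%, 3.24% and 2.56%. The gene that fell was RAD9, the adaptor of Rad53 activation, at −0.16 ± 0.04 in scc2-4 against 0.07 ± 0.04 in wild type (difference −0.23; adjusted p = 0.0426), a call lost without any 1 of 18 arrays.

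Fewer genes of cohesin and recombination rose in scc2-4 than in wild type, as was so over all genes (3.53% against 7.91%). For single genes the difference itself passed. SMC6 was the 1 of 8 measured Smc5/6 genes that rose in wild type, a share near that over all genes (7.91%). SMC1 encodes a cohesin ATPase subunit. It changed by 0.25, 0.34 and 0.42 in wild type with a break and by −0.13, 0.08 and 0.19 in scc2-4 (lowest, median and highest), so the ranges were apart. The effects were 0.34 ± 0.04 and 0.06 ± 0.04, with a difference of −0.28 ± 0.05 (adjusted p = 0.00275). SMC6, an ATPase subunit of the Smc5/6 complex that acts in recombinational repair, changed by 0.21, 0.25 and 0.41 in wild type and by −0.07, −0.01 and 0.06 in scc2-4. Again no array overlapped, and the difference was −0.29 ± 0.04 (adjusted p = 0.000235). TOP2, the type II topoisomerase, rose by 0.27 ± 0.04 in wild type and had 0.00 ± 0.04 in scc2-4 (difference −0.27; adjusted p = 0.0187). RAD52, the central recombination mediator, rose by 0.25 ± 0.03 and had 0.07 ± 0.03 in scc2-4 (difference −0.19; adjusted p = 0.0333), a call lost without any 1 of 10 arrays. The SMC1, SMC6, TOP2 and RAD52 differences did not pass in experiment 1 alone, and those of TOP2 and RAD52 did not pass with close arrays averaged.

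Of 14 genes of cohesin and its regulators, 6 rose and 1 fell in wild type, and 2 rose in scc2-4. Over all genes 7.91% rose and 5.63% fell in wild type and 3.53% rose in scc2-4. The difference was lower in scc2-4 for SMC1 and PDS5 and higher for ECO1. MCD1, the kleisin subunit, rose by 0.31 ± 0.05 in wild type and had 0.13 ± 0.05 in scc2-4, with a difference of −0.18 that did not pass (95% interval −0.32 to −0.03; adjusted p = 0.19). SMC3 rose by 0.20 ± 0.06 and had −0.01 ± 0.06 (difference −0.21; adjusted p = 0.157). For MCD1 and SMC3 a lost effect is therefore not shown. Of 24 measured recombination genes, 10 rose in wild type and 3 in scc2-4, namely the replication protein A genes RFA1, RFA2 and RFA3. Only RAD52 differed past the threshold, which is near the 2.56% over all genes for a list this short. The number that differed was 6 in experiment 2 alone and 8 with array weights, and 0 in experiment 1 alone, with the replicate block, with close arrays averaged and with the additive term. RAD54, a translocase of recombination, rose by 0.30 in wild type and had 0.14 in scc2-4 (difference −0.16, interval −0.34 to 0.02). RDH54 passed in neither genotype (0.14 and −0.02).

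Genes of late mitosis and of the M/G1 interval fell in wild type and mostly did not pass in scc2-4. These genes are transcribed as cells finish mitosis, and all cells here were arrested in G2/M. In bulk RNA, fewer cells of a stage and less mRNA per cell cannot be told apart. Of 20 M/G1 genes, 15 fell in wild type and 1 in scc2-4, with medians of −0.24 and −0.05, and 3 differed (all higher in scc2-4). Over all genes 5.63% fell in wild type, 3.24% fell in scc2-4 and 1.29% were higher in the difference. The number that differed was 0 with the additive term, 0 in experiment 1 alone, 1 with the replicate block and 5 with array weights. DSE1, a daughter-specific gene of cell separation, fell by 0.57 in wild type and had −0.17 ± 0.07 in scc2-4 (difference 0.39; adjusted p = 0.0302). EGT2, another gene of cell separation, changed by −0.70, −0.32 and −0.18 in wild type and by −0.23, −0.04 and 0.09 in scc2-4 (lowest, median and highest), so the ranges overlapped at their edges. Its difference was 0.34 ± 0.08 (adjusted p = 0.0209). DSE3, also daughter-specific, had −0.28 and −0.04 (difference 0.23; adjusted p = 0.00967). DSE1 lost its call without any 1 of 4 arrays. In scc2-4 of experiment 2 its level was lower in every array with a break than in every one without. A lack of overlap, in either direction, held there for 21.9% of all genes.

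Of 20 genes of the CLB2 cluster, which G2/M cells transcribe, 13 fell in wild type and 3 in scc2-4 (over all genes 5.63% and 3.24%). The list medians were −0.20 and −0.09. Only MOB1, a partner of mitotic exit kinases, differed past the threshold, at −0.13 in wild type and 0.02 in scc2-4 (adjusted p = 0.0336), and 9 of the 27 arrays each ended this call when left out. CLB2, the mitotic cyclin, fell by 0.35 in wild type and had −0.13 in scc2-4 with no difference past the threshold (adjusted p = 0.17). Of 23 G1/S genes, 8 rose and 1 fell in wild type and 4 rose in scc2-4 (over all genes 7.91%, 5.63% and 3.53%). GIC2, an effector of the polarity GTPase Cdc42, was the one that fell (−0.29 in wild type and 0.04 in scc2-4; difference 0.33, adjusted p = 0.0291). Whether the stage of the arrest differed between arrays was not tested.

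**Figure D3:**
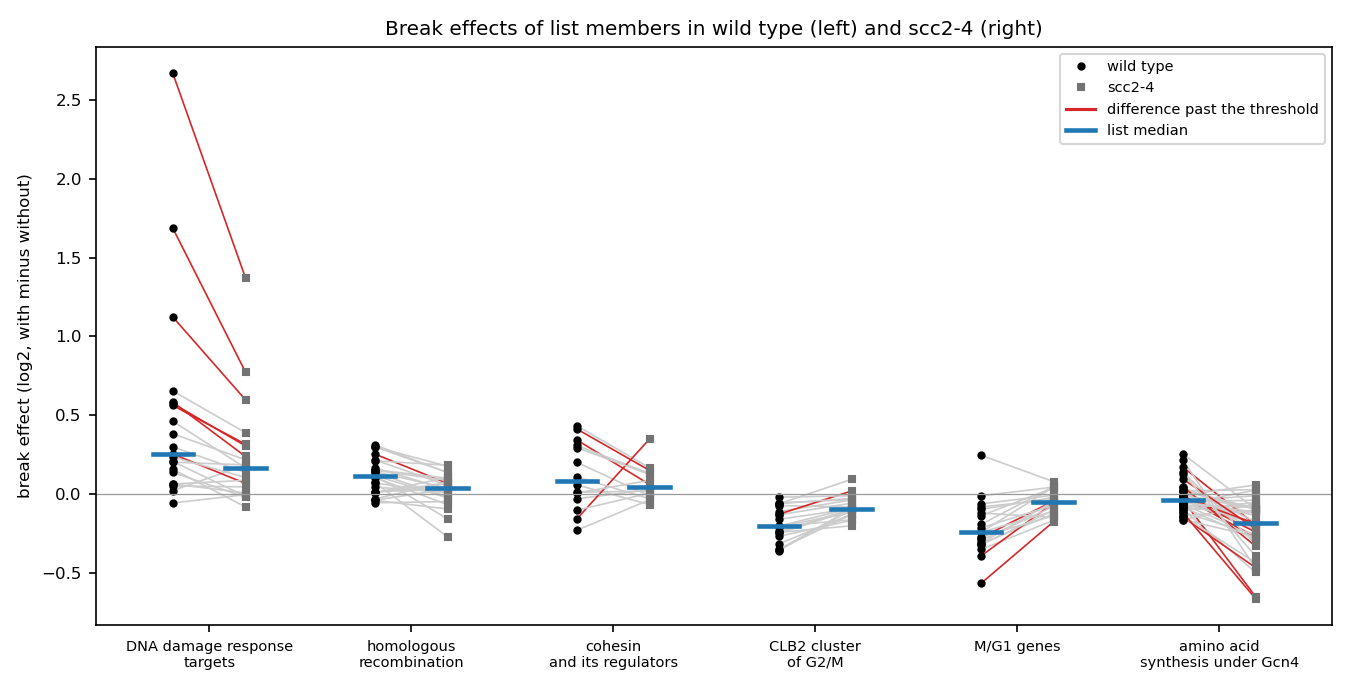
Each pair of points joined by a line is 1 gene of a list, with the log2 break effect on the y axis in wild type (left, black) and scc2-4 (right, grey). Red lines mark differences past the threshold and blue bars the list medians, which move from −0.24 to −0.05 for the M/G1 genes and from −0.04 to −0.19 for amino acid synthesis.

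Many of the lost effects lay on chromosome VI. Of its 116 measured genes 31 fell in wild type (26.7%, against 5.17% on the other chromosomes) and 8 rose (against 7.91% over all genes). In scc2-4 3 fell and 10 rose, against 3.24% and 3.53% over all genes. In the difference 17 were higher (14.7%) and 1 was lower. On the other chromosomes 53 of 5315 genes were higher in the difference (0.997%, between 0.236% and 3.17% on each). Of the 68 lost genes 14 lay on chromosome VI, SMC1 among them. The gene order is that of the R64 assembly. With experiment 1 alone 0 differences passed on this chromosome, and with experiment as an additive term 6 passed.

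CDC14, the phosphatase that drives mitotic exit, had the largest difference among the 68 lost genes. It changed by −0.98, −0.66 and −0.33 in wild type and by −0.20, −0.08 and −0.02 in scc2-4 (lowest, median and highest), with every wild-type array with a break below every scc2-4 array with a break. The effects were −0.69 ± 0.06 and −0.10 ± 0.06 (difference 0.58 ± 0.08; adjusted p = 0.000161). Experiment 1 gave a difference of 0.38 and experiment 2 one of 0.77. HIS2, a histidine synthesis enzyme, changed by −0.79, −0.55 and −0.22 in wild type and by −0.17, −0.12 and 0.06 in scc2-4, again without overlap (difference 0.46; adjusted p = 0.00225). ROG3, an arrestin-like adaptor of ubiquitin ligation, fell by 0.42 in wild type and had 0.09 in scc2-4 (difference 0.51; adjusted p = 0.000236). SAD1, a splicing factor, and FAR7, which acts in recovery from pheromone arrest, both fell by 0.31 in wild type and had 0.12 and 0.09 in scc2-4. CDC14 in both experiments and HIS2 in experiment 2 were still lower in every scc2-4 array with a break than in every one without. In scc2-4 such a lack of overlap, in either direction, held for 19.9% of all genes in experiment 1 and 21.9% in experiment 2. Lost thus means here that the fall did not pass, not that it was absent.

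These genes lie on both sides of ULI1, a gene induced by the unfolded protein response, which was taken as the origin because its own rise was known from earlier results of these data. ULI1 changed by 1.55, 1.76 and 1.91 in wild type and by 2.19, 2.35 and 2.54 in scc2-4 (lowest, median and highest), while its no-break arrays stayed between −0.25 and 0.30. All arrays with a break lay above all without, and all scc2-4 arrays with a break above all wild-type ones. The effects were 1.75 ± 0.09, or 3.36-fold, and 2.35 ± 0.08, or 5.10-fold. ULI1 was one of 2 genes with a larger effect in scc2-4 (difference 0.60 ± 0.12; adjusted p = 0.00571). Experiment 1 gave a difference of 0.58 and experiment 2 one of 0.62, and neither experiment alone passed.

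HIS2 is the neighbour of ULI1 on 1 side and ECO1, then CDC14, on the other. ECO1 encodes the acetyltransferase that makes cohesin cohesive. It changed by −0.36, −0.14 and 0.02 in wild type and by 0.22, 0.41 and 0.46 in scc2-4, with no overlap, so that it was the gained cohesin regulator (−0.16 ± 0.05 and 0.35 ± 0.05; difference 0.51, adjusted p = 0.000195). Of the 17 measured genes within 10 genes of ULI1, 9 fell in wild type and 0 in scc2-4, and all 17 had a higher effect in scc2-4 than in wild type. This was also so for 17 of 19 genes at 11 to 20 genes from ULI1, 17 of 17 at 21 to 30 genes and 39 of 62 beyond. Over all genes 2665 of 5434 had a lower effect in scc2-4 than in wild type. The 17 genes within 10 genes of ULI1 had a median effect of −0.13 and −0.30 in wild type of experiments 1 and 2. In scc2-4 their median was −0.03 and −0.01. At 21 to 30 genes from ULI1, 7 of 17 fell in wild type and 6 differed, at 11 to 20 genes 4 of 19 fell and 2 differed, and beyond 30 genes 11 of 62 fell, with 2 higher and 1 lower in the difference. Over all genes 5.63% fell in wild type and 3.24% in scc2-4, and 1.29% were higher and 1.27% lower in the difference. These distance classes were chosen after the values were seen.

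**Figure D4:**
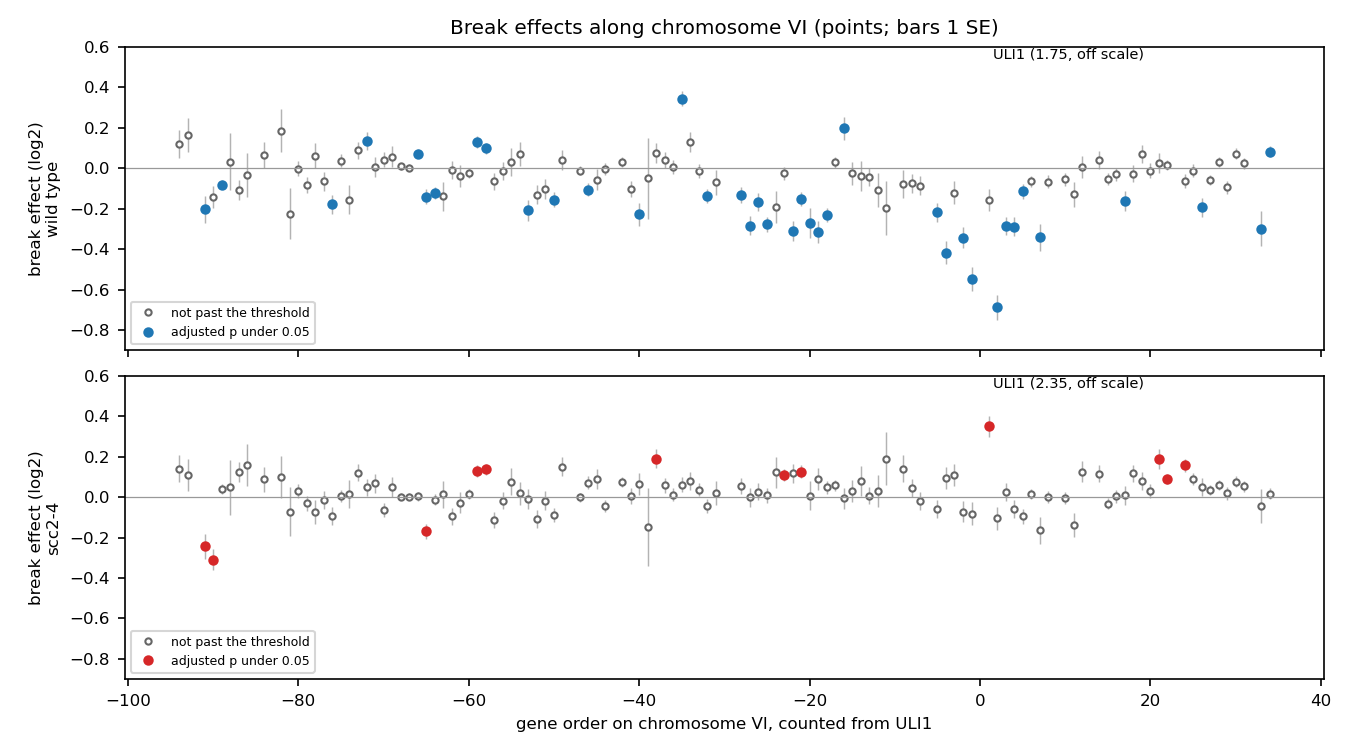
The x axis gives the order of genes on chromosome VI counted from ULI1 and the y axis the log2 break effect with its SE, for wild type (top) and scc2-4 (bottom); filled points passed the threshold. The falls around ULI1 in wild type, down to −0.69 at CDC14, have no counterpart past the threshold in scc2-4, where ECO1 rose by 0.35. ULI1 itself is off the scale.

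Effects that reversed were small except for 1 probe set. YLL066W-B, a subtelomeric open reading frame of chromosome XII, changed by 0.59, 0.74 and 0.93 in wild type and by −1.78, −1.60 and −1.45 in scc2-4 (lowest, median and highest). The groups were far apart, and the difference was −2.36 ± 0.09 (adjusted p = 2.98e-15). Its probe set is of a type that can match several genes, and the other probe set of this gene gave effects of 0.23 in wild type and −0.08 in scc2-4, so the size is not shared by both. IME2, a kinase of meiosis, changed by −0.30 ± 0.06 in wild type and 0.18 ± 0.06 in scc2-4 (difference 0.48; adjusted p = 0.000976). EST3, a telomerase subunit, had −0.17 and 0.14 (difference 0.31; adjusted p = 4.11e-05), and RIF1, which binds telomeres and protects ends, had 0.14 and −0.12 (difference −0.26; adjusted p = 0.00887). LYS1, the last enzyme of lysine synthesis, had 0.17 and −0.19, LOT6, a quinone reductase, 0.15 and −0.16, and YFR006W, a putative peptidase of chromosome VI, −0.15 and 0.13. The second gene with a larger effect in scc2-4 was COS8, of a subtelomeric family whose members share sequence, at −0.27 and −0.56 (difference −0.29; adjusted p = 0.0401), and 17 of 27 arrays each ended this call when left out.

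The other lost effects away from chromosome VI and the lists above included RDS1, a zinc cluster factor, and YMR175W-A and YPR078C, which are uncharacterised. RDS1 rose by 0.35 ± 0.07 in wild type and had −0.13 ± 0.07 in scc2-4 (difference −0.48; adjusted p = 0.00689). YMR175W-A rose by 0.49 and had 0.10 (difference −0.39), and YPR078C fell by 0.33 and had 0.09 (difference 0.42). Over the 68 lost genes, 28 rose and 40 fell in wild type. The sizes of their differences ranged from 0.13 to 0.58.

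Genes of amino acid synthesis under Gcn4, the activator that responds to amino acid shortage, fell in scc2-4 with a break. Of 38 measured genes 20 fell and 0 rose in scc2-4, while 1 rose and 2 fell in wild type (over all genes 3.24% fell in scc2-4). The medians were −0.19 in scc2-4, −0.04 in wild type and −0.16 for the difference. The difference was lower for 9 genes (1.27% over all genes) and higher for 0, of which 8 were gained and LYS1 was reversed. The number was 5 in experiment 2 alone, 3 in experiment 1 alone, 5 with close arrays averaged and 1 with experiment as an additive term.

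ARG4, which makes arginine from argininosuccinate, changed by −0.18, −0.07 and 0.21 in wild type and by −0.86, −0.65 and −0.51 in scc2-4 (lowest, median and highest). No arrays overlapped, and the difference was −0.61 ± 0.09 (adjusted p = 0.000235). HOM3, aspartate kinase of threonine and methionine synthesis, changed by −0.31, −0.11 and 0.03 in wild type and by −0.89, −0.64 and −0.46 in scc2-4 (difference −0.55 ± 0.09; adjusted p = 0.000976). ARO1, the multifunctional enzyme of aromatic amino acid synthesis, had 0.05 ± 0.04 in wild type and −0.33 ± 0.03 in scc2-4 (difference −0.38; adjusted p = 4.11e-05), with −0.37 and −0.38 in experiments 1 and 2. HIS1, HIS7, LYS2, ARO3 and the cyclin gene PCL5 were the other gained members, with differences of −0.32, −0.26, −0.23, −0.17 and −0.32. The no-break levels of experiment 1, where both genotypes had like distributions, were 9.60, 9.65 and 9.87 for ARG4 in wild type and 9.99, 10.06 and 10.29 in scc2-4. Those of HOM3 were 10.26, 10.26 and 10.47 in wild type and 10.33, 10.32 and 10.48 in scc2-4. Those of ARO1 were 11.37, 11.42 and 11.50 in wild type and 11.85, 11.80 and 11.85 in scc2-4. ARG4 and ARO1 thus began higher in scc2-4 of this experiment and HOM3 began at overlapping levels. In experiment 2 ARG4 began at 8.91 to 8.99 in wild type and 10.57 to 10.92 in scc2-4. HOM3 began there at 9.55 to 9.81 in wild type and 10.66 to 10.89 in scc2-4. Genotype and set cannot be told apart in that experiment. The part of the starting level in the break effect was not tested.

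Other gained effects were larger in single genes. YIR042C, an uncharacterised subtelomeric gene, changed by −0.41, −0.14 and −0.02 in wild type and by −1.98, −1.57 and −1.44 in scc2-4 (difference −1.42 ± 0.12; adjusted p = 1.73e-08). SLF1, an RNA-binding protein linked to copper, changed by −0.27, −0.13 and 0.14 in wild type and by 0.56, 0.71 and 0.86 in scc2-4 (difference 0.80 ± 0.09; adjusted p = 1.34e-06). Neither gene's ranges overlapped. YLR156W and YLR157W-E, open reading frames of chromosome XII, rose by 1.35 and 1.22 in scc2-4 and had −0.07 and −0.01 in wild type. Both rest on probe sets that can match several genes, and the other probe set of YLR157W-E gave a difference of −0.01. SWM2 rose by 0.32 in scc2-4 and had −0.13 in wild type (adjusted p = 0.0337 for the difference), a call lost without any 1 of 11 arrays. Over the 39 gained genes, 17 rose and 22 fell in scc2-4.

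A group of 12 genes differed with neither effect past the threshold. They included PTR2, a peptide transporter (−0.21 in wild type and 0.22 in scc2-4), PCL2, a G1 cyclin (−0.16 and 0.15), CDC39, the scaffold of the Ccr4-Not complex (0.15 and −0.14), SMC4, a condensin subunit (0.12 and −0.12), and BUL1, a ubiquitin ligase adaptor (0.12 and −0.10). AIM29, MST28 and TRS31, the last a subunit of a vesicle tethering complex, had −0.11, −0.10 and −0.10 in wild type and 0.14, 0.12 and 0.11 in scc2-4. The other probe set of MST28 gave 0.20 in wild type and 0.24 in scc2-4, a difference of 0.043 in place of 0.22. Each of these 8 genes lost its call in between 6 and 20 of the 27 fits that left out 1 array.

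Kept genes passed in both genotypes with 1 sign. Kept means here that the difference did not pass, not that the effects were equal. Of the 95 kept genes 67 rose and 28 fell in both genotypes, with median absolute effects of 0.17 in wild type and 0.15 in scc2-4, and 66 of them were smaller in scc2-4. SIP18, a hydrophilin of desiccation tolerance, rose by 0.89 ± 0.12 in wild type and 0.42 ± 0.11 in scc2-4 (difference −0.47, 95% interval −0.81 to −0.13; adjusted p = 0.125) and the difference is not past the threshold over all genes. PAI3, an inhibitor of the vacuolar protease Pep4, rose by 0.67 and 0.38, and CDC21, thymidylate synthase, by 0.46 and 0.25. YPR015C, a zinc finger protein gene, rose by 0.65 and 0.52 (interval of the difference −0.32 to 0.07). YPL152W-A rose by 0.41 and 0.21, and YEL076C-A, on a probe set that can match several genes, fell by 0.39 in both genotypes. The experiments did not share this equal size of YEL076C-A, whose difference was −0.30 in experiment 2 alone. In scc2-4 of experiment 1 its arrays with and without a break overlapped. Among 35 proteasome genes 16 rose in wild type and 9 in scc2-4, and among 35 genes activated by Msn2 or Msn4 under stress 7 and 5 rose. The shares of all genes that rose were 7.91% in wild type and 3.53% in scc2-4. In either list 0 differences were called, which is near the 2.56% over all genes for lists this short.

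**Figure D5:**
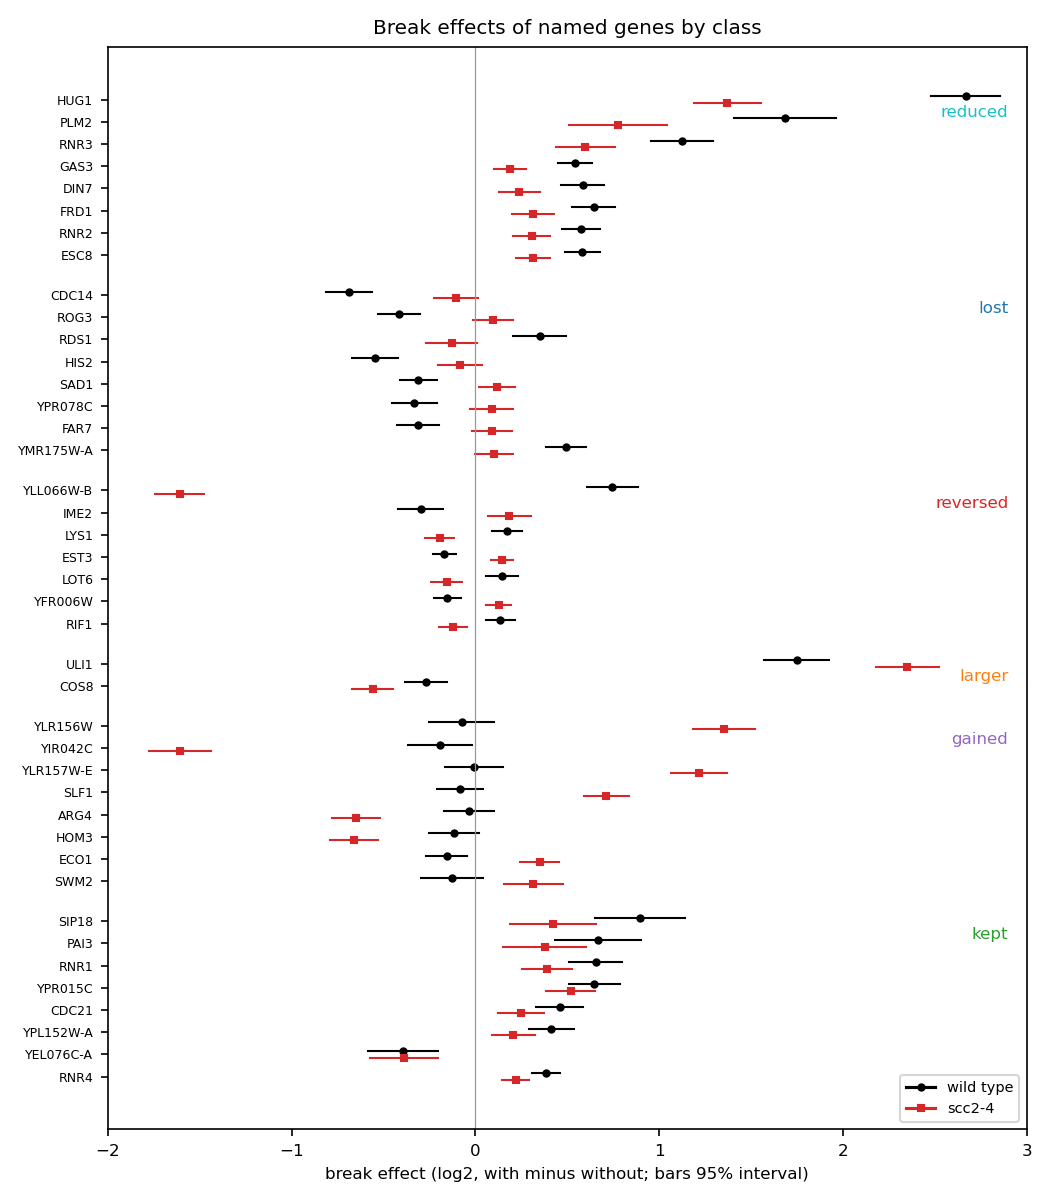
The x axis is the log2 break effect with its 95% interval, in wild type (black) and scc2-4 (red), for up to 8 reduced, lost, reversed, larger, gained and kept genes each on the y axis. HUG1 stands at 2.67 and 1.37, lost genes such as CDC14 have scc2-4 effects that did not pass, and both intervals of kept genes lie on 1 side of 0.

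The genes that check the treatment did not pass in any of the 3 comparisons. HO, the endonuclease gene, had a break effect of 0.01 ± 0.04 in wild type and −0.07 ± 0.03 in scc2-4 (difference −0.08, interval −0.18 to 0.02; adjusted p = 0.43). GAL1, the galactokinase, had 0.02 in both (difference 0.00, interval −0.06 to 0.05). In scc2-4 of experiment 1 the HO level was 13.45 to 13.65 with a break and 13.70 to 13.73 without. A lack of overlap, in either direction, held there for 19.9% of all genes. The HO arrays with and without a break overlapped in wild type and in experiment 2. In any of the 3 comparisons 0 of 9 genes of the galactose regulon passed, against 13.5%, 6.77% and 2.56% of all genes. SCC2 and SCC4 mRNA passed in neither genotype, with differences of −0.12 (adjusted p = 0.135) and 0.01. The mutation acts on the protein, so the SCC2 level does not check the labels. Of 11 mating-type-specific genes 1 rose in scc2-4, 1 fell in wild type and 0 differed. For a list this short these are near the shares over all genes (3.53%, 5.63% and 2.56%).

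To describe the carry-over of genes chosen in other arrays, the 7 genes called when the wild-type arrays of experiment 1 were fitted by themselves were followed (HUG1, PLM2, RNR3, DUN1, ULI1, YPL152W-A and YLL066W-B). Their median effect in those arrays was 0.79, and in arrays that did not choose them it was 1.45 in wild type of experiment 2, 0.56 in scc2-4 of experiment 1 and 0.63 in scc2-4 of experiment 2. All 7 rose in wild type of experiment 2, and 6 of 7 kept their sign in both experiments of scc2-4, with YLL066W-B the exception. These fits of 1 genotype estimate the spread from fewer arrays than the fits of both genotypes of an experiment, which called 22 wild-type effects in experiment 1 and 1273 in experiment 2. The 688 genes called in wild type of experiment 2 by itself, taken in the direction they had there, had a median of 0.27 in those arrays, 0.05 in wild type of experiment 1, 0.12 in scc2-4 of experiment 2 and −0.03 in scc2-4 of experiment 1. Their sign was shared by 486, 609 and 258 of the 688 in these last 3.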

How the data were processed

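Total RNA of 27 haploid W303 yeast cultures was measured on 1-colour Affymetrix Yeast Genome 2.0 arrays. The authors deposited log2 expression values, which per the submitters' processing notes were made with RMA under R 2.9.2. Its version and the arrays that were normalized together are not given in the sources used here. The centring of the columns is unknown, since only these processed values were analysed, and each array held 1 sample, so no direction had to be set. Of 5684 probe sets 5468 had 1 gene symbol, 0 several and 216 none. Symbols were updated through the R64 gene table (12 changed). Where a gene had more than 1 probe set (34 genes), only the brightest on average was used, giving 5434 genes. No build is named for the arrays, so no coordinates are given.

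The samples were grouped by their labels, which call the replicates biological; the number of arrays limits the precision. All 27 arrays were fitted together by limma 3.58.1 (lmFit, then eBayes; R 4.3.3), with break effects for each genotype and a block of 4 levels (experiment by genotype). The difference was the scc2-4 effect minus the wild-type effect. Benjamini-Hochberg adjustment ran over 5434 genes with a threshold of 0.05. The fit was tested on simulated data with independent noise in each array, which does not cover arrays that deviate together. The other settings tried, with their effect given below, were an additive experiment term, replicate numbers as a block, each experiment alone, array weights, median centring, quantile normalization, a filter on the dimmest 25% of genes, the mean of a gene's probe sets, a trended robust prior, close arrays averaged (median absolute difference under 0.05), each array left out and, chosen after the data were seen, a block of arrays that deviated together.

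Named genes were up to 8 of each class with the largest difference and the same sign in both experiments (for kept genes, the largest wild-type effect with the same sign of both effects), up to 4 called members of each list with the largest difference, and 20 genes of the damage response, cohesin and the treatment, of which 19 were measured. Other members of the described lists, the neighbours on chromosome VI and AIM44, SAT4, CTF3, RFA1, RFA2, RFA3, RAD53, CLB2, HIS1, HIS7, LYS2, ARO3 and PCL5 were named after their values were seen. The comparison, the gene lists, the classes and the rule were chosen with earlier results of these data known, and no set test was run. Ranges that did not overlap are a description, since many of the named genes were chosen by the size of their difference.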

Additional observations from a re-analysis of the deposited data

Results flagged for a closer look

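The break effect differed between the genotypes by the test of the difference for 55 named genes, given here as log2 differences (scc2-4 effect minus wild-type effect). Among genes with a reduced effect these were HUG1 at −1.30, PLM2 at −0.91, RNR3 at −0.53, GAS3 at −0.35, DIN7 at −0.34, FRD1 at −0.33, RNR2 at −0.27, ESC8 at −0.27, PDS5 at −0.26 and DUN1 at −0.25. Among genes with a lost rise they were RDS1 at −0.48, YMR175W-A at −0.39, SMC6 at −0.29, SMC1 at −0.28, TOP2 at −0.27 and RAD52 at −0.19. Genes with a lost fall were CDC14 at 0.58, ROG3 at 0.51, HIS2 at 0.46, SAD1 at 0.43, YPR078C at 0.42, FAR7 at 0.40, DSE1 at 0.39, EGT2 at 0.34, GIC2 at 0.33, DSE3 at 0.23 and MOB1 at 0.15.

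The reversed genes were YLL066W-B at −2.36, IME2 at 0.48, LYS1 at −0.37, EST3 at 0.31, LOT6 at −0.30, YFR006W at 0.28 and RIF1 at −0.26, and the genes with a larger effect were ULI1 at 0.60 and COS8 at −0.29. The gained genes were YLR156W at 1.43, YIR042C at −1.42, YLR157W-E at 1.22, SLF1 at 0.80, ARG4 at −0.61, HOM3 at −0.55, ECO1 at 0.51, SWM2 at 0.44, ARO1 at −0.38, DIF1 at 0.38 and RAD9 at −0.23. PTR2 at 0.43, PCL2 at 0.32, CDC39 at −0.29, AIM29 at 0.24, SMC4 at −0.23, MST28 at 0.22, BUL1 at −0.22 and TRS31 at 0.21 differed with neither effect called.

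A single array stood apart from the others of its group for 14 of 365 sets of values tested among the named genes, and chance gives about 1 in 20. In levels of scc2-4 without a break these were HUG1 in 2_4 (6.95, the nearest 7.07), HIS2 in 2_1 (10.53, the nearest 10.37), DIN7 in 2_2 (7.79, the nearest 7.95), HOM3 in 2_2 (10.66, the nearest 10.86) and YPL152W-A in 2_2 (4.32, the nearest 4.61). In scc2-4 with a break they were the levels of RNR4 in 2_2 (13.57), YIR042C in 2_3 (6.27, the nearest 6.50) and SLF1 in 2_1 (8.90, the nearest 9.04), and the changes of YPR078C in 2_1 (0.26), SMC4 in 2_1 (−0.29) and LYS1 in 1_1 (−0.31, the nearest −0.20). In wild type they were the levels of YLL066W-B in 2_4 (7.09, the nearest 7.42) and CDC21 in 2_3 (8.56, the nearest 8.42) without a break, and the change of GIC2 in 2_3 with a break (−0.61, the nearest −0.30).

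Among the 216 probe sets without a gene name, which the comparisons do not use, the difference was called for 9 when they were fitted apart.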

How the results depend on the processing

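All 139 called differences kept their sign under every alternative that fitted them, and 37 of the 55 named genes with a called difference kept the call without each of the 27 arrays. Median centring, the mean of probe sets and the trended prior gave 131, 138 and 138 calls, with 129, 138 and 133 of the 139 among them. With experiment as an additive term 19 differences were called (11 higher, 8 lower; 19 shared), 103 effects in wild type, 33 in scc2-4, and the classes held 6 lost, 2 reduced, 1 reversed, 1 larger, 8 gained and 7 kept genes. In experiment 1 alone 11 were called (5 higher, 6 lower), 22 and 36 effects, and 0 lost, 1 reduced, 1 reversed, 0 larger, 7 gained and 5 kept; 469 genes had an unadjusted p under 0.05. In experiment 2 alone 139 were called (62 shared, 36.7% higher against 50.4%), 1273 and 566 effects, 0 larger, 20 gained and 259 kept. With array weights 586 were called (257 higher, 329 lower), 1398 and 1358 effects, and 286 lost, 29 reduced, 38 reversed, 4 larger, 194 gained and 365 kept. With close arrays averaged 54 were called (30 higher, 24 lower), 69 effects in scc2-4, and 35 lost, 4 reduced, 1 reversed, 1 larger, 13 gained and 25 kept. Without the dimmest 25% of genes 6 were reduced, since fewer genes were fitted, and with quantile normalization 146 were called and 1 was larger. Apart from the filter and the smaller numbers of arrays, the cause of these changes was not tested.

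Replicate numbers paired the arrays only in part, since of 13 same-numbered pairs 9 correlated above 0.1, and r ran from −0.67 to 0.70. Arrays deviated together in other pairings, so each genotype and experiment was split in 2 by the sign of the first component of the deviations from its group means, which held 60.2% to 82.3% of them, a split chosen after the data were seen. With this split as a block 784 differences were called (369 higher, 415 lower; all 139 among them), 2112 effects in wild type and 1432 in scc2-4, and 447 lost, 52 reduced, 60 reversed, 12 larger, 173 gained and 571 kept genes. As the split was taken from the same values, these p-values are too small. With a replicate block, to which 2_4 of wild type without a break contributes nothing for want of a partner, 115 differences were called (84 shared), 5 genes were reduced, and the damage list held 2 called differences in place of 7. Leaving out 1 array gave 84 to 178 called differences (42 to 83 higher, 39 to 95 lower), 496 to 871 effects in wild type and 245 to 412 in scc2-4, 42 to 101 lost, 7 to 14 reduced, 4 to 9 reversed, 1 to 3 larger, 22 to 53 gained and 63 to 103 kept. The call count fell below 139 by over 1.5 times without 1_3 of scc2-4 with a break (84), without 2_1 (85) or 1_1 (90) of scc2-4 without one, and without 2_1 of wild type without a break or 2_2 or 2_3 of wild type with one (91 each). Called list members, counted after the data were seen, then ranged from 5 to 9 for damage targets, 8 to 13 for amino acid synthesis, 2 to 5 for M/G1 genes and 14 to 19 for chromosome VI.

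Some uncalled differences changed sign, most of them near 0 in the main fit. YEL076C-A had −0.0083 with the additive term, −0.30 in experiment 2 alone, −0.13 with array weights and −0.012 with close arrays averaged. TOS4 had 0.094 in experiment 1 alone and 0.0075 with close arrays averaged, SCC4 −0.058 and −0.023 in the same settings, and RAD54 0.014 in experiment 1 alone. HO had 0.0029 and YPR015C 0.065 in experiment 2 alone. With the split as a block YEL076C-A had −0.012 and GAL1 0.0028. GAL1 had 0.0018 in experiment 1 alone, 0.0011 with centring, 0.00035 with close arrays averaged and 0.022 with quantile normalization. Without 1 array the ranges were −0.076 to 0.048 for YEL076C-A, −0.056 to 0.0059 for TOS4, −0.014 to 0.030 for SCC4 and −0.0097 to 0.0095 for GAL1. The median carry-over was −0.030 in scc2-4 of experiment 1 where wild type of experiment 2 chose the genes.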
